A study of Mus musculus with 4 samples.

Results

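The splicing and hnRNP genes are 53 mouse protein-coding genes whose symbols start with Srsf, Hnrnp, Snrp, Sf3a or Sf3b, out of 21887 protein-coding genes in the RefSeq table of the mm10 assembly. The rule uses the symbols and no peak value, and the genes were set against 1 list of 27050 Trim33 peaks from Th17 cells. By role they were 11 SR protein genes, 21 hnRNP genes, 8 Sm protein genes, 4 genes for proteins specific to the U1 or U2 particle, 3 SF3a genes and 6 SF3b genes.

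The study mapped Trim33 by chromatin immunoprecipitation and sequencing (ChIP-seq) in 2 Trim33 ChIP libraries, with 2 input DNA libraries that had no antibody. Both groups came from naive CD4+ T cells of spleen and lymph nodes of C57BL/6 mice. These cells were activated on anti-CD3 and CD28 with IL-6 and TGF-b, plus antibodies against IL-4 and IFN-g, to become Th17 cells, the helper cells that make IL-17. The antibody was Trim33 (Bethyl, A301-060A), and the labels name no cells without Trim33. Replicates were merged before the peaks were listed, and each peak carries a single set of values. The depth of each library and the spread between cultures are therefore unknown, no difference below has a replicate check, and shares are set side by side as descriptions with no test. Peaks do not measure expression, so the cell label could be checked only for peaks. All 7 T cell and Th17 marker genes looked at (Cd3e, Cd4, Il17a, Il17f, Rora, Il23r and Ccr6) had a summit in the gene body or within 10 kb of it. The same held for 53.9% of all protein-coding genes, so these summits do not establish the cell type. Of the 7, only Il17a, Il17f and Il23r had a summit within 1000 bp of a gene end, against 33.4% of all protein-coding genes.

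Splicing removes introns from pre-mRNA in the spliceosome, a machine built from small nuclear ribonucleoproteins (snRNPs). Each major spliceosomal snRNP other than U6 carries a ring of Sm proteins on its RNA. SF3a and SF3b are parts of the U2 snRNP, which recognises the branch point. SR proteins bind exons and mostly promote their inclusion, and hnRNPs coat nascent RNA and often oppose inclusion. Activated T cells switch the splicing of many genes, among them Ptprc, which encodes CD45. Trim33 is a ubiquitin ligase that binds SMAD proteins of the TGF-beta pathway and modified histone H3.

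Trim33 summits lay at most of these genes, mostly near the start. Of the 53 genes, 39 (73.6%) had a summit at most 1000 bp from 1 of their ends, called a gene-end summit, against 7306 of all 21887 protein-coding genes (33.4% called). The locus, meaning the gene with flanks of 10 kb, held a summit in 45 genes (84.9%), against 53.9% of all protein-coding genes. Distal summits, those of the locus with no protein-coding gene end within 1000 bp, were found in 15 genes (28.3%), against 31.4% of all. The distal share was thus not above that of all genes, and with distal taken as over 2500 bp from gene ends it was 9 of 53 (17.0%), against 25.7% of all. Among peaks at or above the median fold of the list it was 4 of 53 (7.55%), against 20.6% of all. The genes were shorter than most, with a median length of 10435 bp against 17169 bp. When symbols of large receptor families and unnamed genes (Olfr, Vmn, Gm and Rik) were left out, 38.1% of the remaining protein-coding genes had a gene-end summit.

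More than 1 summit at the ends was found in 11 of the 53 genes (20.8%), against 5.67% of all protein-coding genes. The 39 genes held 55 gene-end peaks between them. The fold enrichment is the authors' ratio of signal to background at the summit. These 55 peaks had a median of 5.66 (quartiles 4.44 and 7.23) and spanned 2.69 to 12.1. All 7497 gene-end peaks of the list had a median of 5.79 (quartiles 4.69 and 7.51). A fold of 10 or more was reached by 6 of the 55 peaks (10.9%), against 8.88% of all gene-end peaks. Summits were thus frequent at splicing and hnRNP genes, but their peaks had a median near that of gene-end peaks in general.

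**Figure D1:**
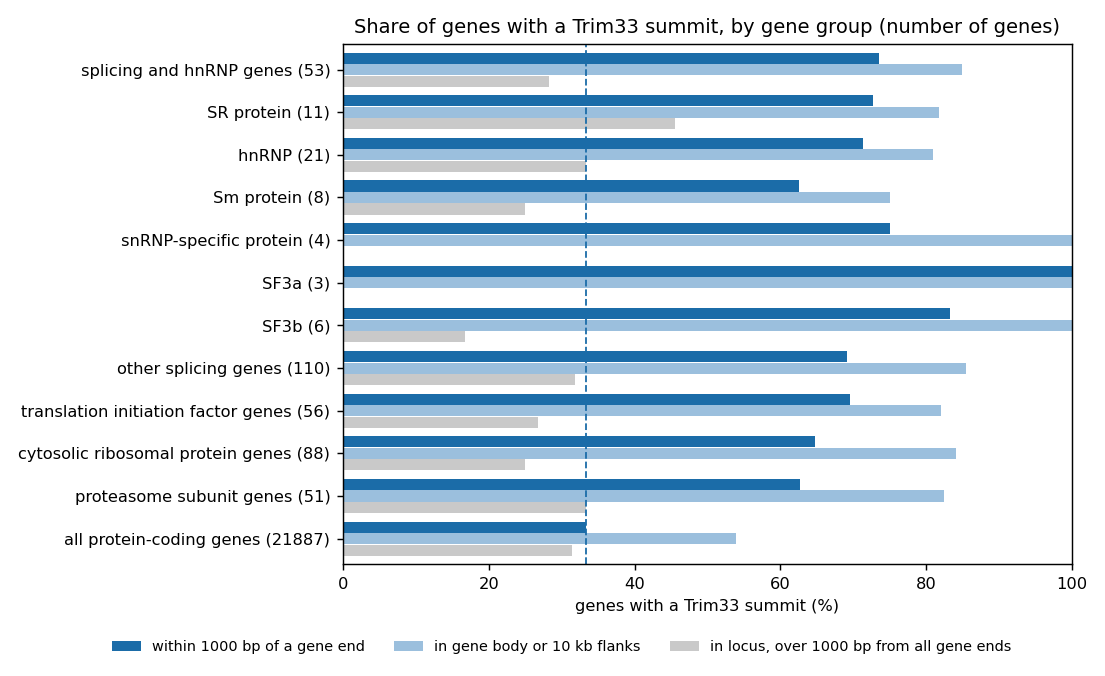
Percent of genes with a Trim33 summit (x axis) in each gene group (y axis, number of genes in parentheses), for summits within 1000 bp of a gene end, in the locus (gene body or 10 kb flanks), and at distal sites (in the locus but over 1000 bp from all gene ends). The dashed line is the gene-end share of all protein-coding genes (33.4%), and the share of splicing and hnRNP genes is 73.6%.

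Other gene groups of basic cell function had like shares. The gene-end share of the splicing and hnRNP genes (39 of 53, 73.6%) stood beside 39 of 56 for translation initiation factor genes (69.6%). Cytosolic ribosomal protein genes had 57 of 88 (64.8%) and proteasome subunit genes 32 of 51 (62.7%). More than 1 gene-end summit was found in 20.8% of the splicing and hnRNP genes, against 16.1%, 10.2% and 3.92% of the initiation factor, ribosomal protein and proteasome genes. These differences were not tested.

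The RefSeq promoter table, which gives the strand and 1 or more start sites of a gene, covered 47 of the 53 genes. It has no entry for Hnrnpll, Hnrnpul2, Sf3b4, Sf3b5, Snrpb and Snrpd1. Of the gene-end summits of the 47 genes, 48 were nearer to the start and 2 to the far end (96.0% at the start), against 92.4% over all genes of the table. A summit within 1000 bp of a listed start was found in 36 of the 47 genes (76.6%), against 6087 of 17492 genes (34.8% called). Seen from each of the 49 starts with a summit, the nearest summit was upstream of the start in 33, downstream in 15 and on the start base in 1. The median distance was 99 bp, against 86 bp over all starts with a summit. Counted per start, the nearest summit was upstream more often than downstream, at these genes as at all genes (67.3% against 66.7% upstream). Starts of 1 gene can share a summit, and a listed start can lie inside the gene span. By that span, 28 of the 55 gene-end summits of the set lay inside the gene. For all gene-end peaks this share was not counted.

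**Figure D2:**
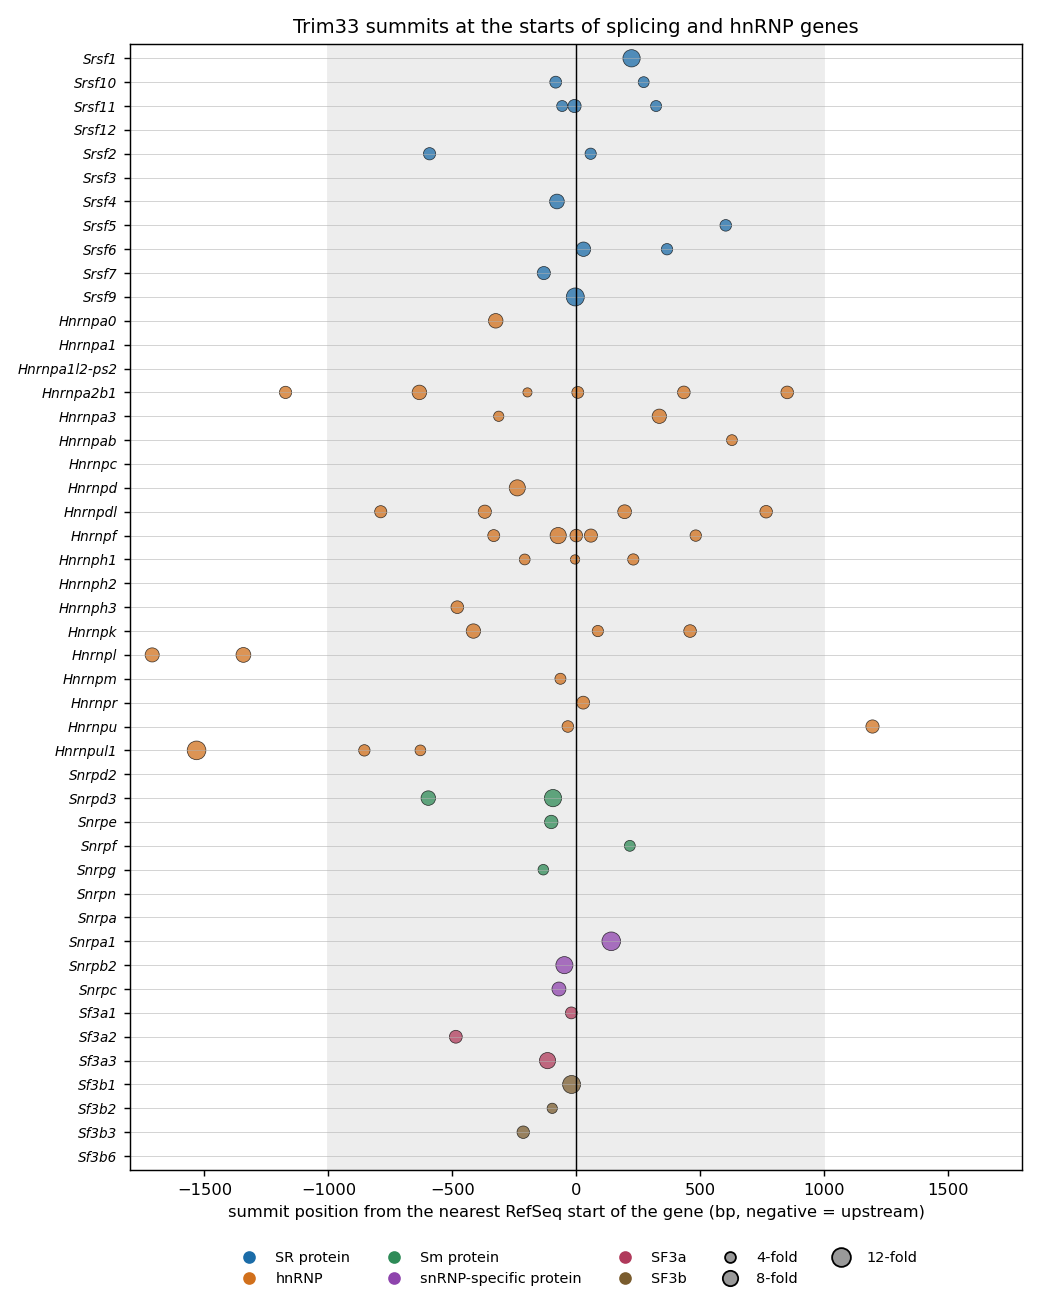
Position of each Trim33 summit relative to the nearest RefSeq start of its gene (x axis, bp, negative values upstream) for the 47 genes with a listed start (y axis, ordered by role). Point area follows the fold enrichment, the grey band spans 1000 bp on each side, summits farther than 1800 bp are not drawn, and 36 of the 47 genes have a summit in the band.

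The promoters below belong to the highest peaks whose summit fell inside the promoter window, which runs from 250 bases before the start to 50 after it. They are RefSeq sequences of GRCm38.p6, the assembly of mm10, 5′ to 3′ in the direction of transcription. Capitals mark matches to any of 12 short motifs searched on both strands, and no matches overlap in these 6 promoters. The windows are chr5:115326927-115327226 on the plus strand (Srsf9), chr6:117900090-117900389 plus (Hnrnpf), chr10:75517792-75518091 plus (Snrpd3), chr2:143062819-143063118 plus (Snrpb2), chr4:124714611-124714910 plus (Sf3a3) and chr1:55027429-55027728 minus (Sf3b1).
Srsf9: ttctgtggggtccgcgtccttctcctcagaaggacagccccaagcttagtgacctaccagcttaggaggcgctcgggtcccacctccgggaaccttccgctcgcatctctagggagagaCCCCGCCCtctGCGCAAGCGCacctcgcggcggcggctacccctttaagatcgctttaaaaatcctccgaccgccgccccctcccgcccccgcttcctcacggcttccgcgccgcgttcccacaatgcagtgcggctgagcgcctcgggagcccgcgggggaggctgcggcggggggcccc
Hnrnpf: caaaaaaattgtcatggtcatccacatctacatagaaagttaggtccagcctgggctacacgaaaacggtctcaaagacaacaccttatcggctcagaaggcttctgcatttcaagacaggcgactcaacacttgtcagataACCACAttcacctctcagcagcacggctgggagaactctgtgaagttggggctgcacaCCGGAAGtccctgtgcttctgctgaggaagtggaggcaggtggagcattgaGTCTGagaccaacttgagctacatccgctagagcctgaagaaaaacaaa
Snrpd3: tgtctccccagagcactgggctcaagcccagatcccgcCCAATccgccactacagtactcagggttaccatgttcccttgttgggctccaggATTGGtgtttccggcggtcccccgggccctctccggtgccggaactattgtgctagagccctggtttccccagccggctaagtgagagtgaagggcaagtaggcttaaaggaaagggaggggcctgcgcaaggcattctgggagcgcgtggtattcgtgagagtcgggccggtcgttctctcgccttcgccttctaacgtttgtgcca
Snrpb2: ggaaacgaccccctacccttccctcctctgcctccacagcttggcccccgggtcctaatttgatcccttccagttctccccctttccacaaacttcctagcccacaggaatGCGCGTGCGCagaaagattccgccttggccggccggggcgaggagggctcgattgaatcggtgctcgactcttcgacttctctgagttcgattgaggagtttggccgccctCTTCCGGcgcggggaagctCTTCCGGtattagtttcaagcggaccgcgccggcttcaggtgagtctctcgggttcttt
Sf3a3: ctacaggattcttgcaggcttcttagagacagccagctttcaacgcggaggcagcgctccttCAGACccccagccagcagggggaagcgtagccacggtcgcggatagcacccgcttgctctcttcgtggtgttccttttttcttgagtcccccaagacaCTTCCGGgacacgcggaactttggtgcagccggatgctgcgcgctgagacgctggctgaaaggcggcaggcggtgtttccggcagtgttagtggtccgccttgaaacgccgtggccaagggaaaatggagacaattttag
Sf3b1: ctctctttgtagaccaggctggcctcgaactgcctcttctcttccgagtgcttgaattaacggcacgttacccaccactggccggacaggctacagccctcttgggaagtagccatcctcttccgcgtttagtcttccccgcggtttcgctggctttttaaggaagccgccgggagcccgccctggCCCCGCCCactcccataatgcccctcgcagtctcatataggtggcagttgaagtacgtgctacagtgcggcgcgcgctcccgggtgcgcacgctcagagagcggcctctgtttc

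In these promoters the summit lay 4 bp upstream of the start for Srsf9, 73 bp for Hnrnpf, 94 bp for Snrpd3, 48 bp for Snrpb2, 116 bp for Sf3a3 and 19 bp for Sf3b1. Snrpb2 has 2 matches to the ETS motif CCGGAAG, which begin 28 and 9 bp before the start, and a match to the NRF1 motif 139 bp before it. Hnrnpf has 1 ETS match 50 bp before the start and Sf3a3 has 1 at 90 bp. Both also have a match to the SMAD motif CAGAC, 1 bp after the start in Hnrnpf and 188 bp before it in Sf3a3. Hnrnpf further has a match to the RUNX motif TGTGGT 108 bp before the start. Srsf9 and Sf3b1 have the SP/KLF motif GGGCGGGG, at 131 and 64 bp before the start, and Srsf9 also has an NRF1 match. Snrpd3 has none of these, only a pair of CCAAT boxes at 212 and 158 bp before the start. A match is a description of the letters and not evidence of a bound factor.

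In promoters with a summit, the ETS motif stood out in counts. With or without a summit, it was in a listed promoter of 16 of the 47 genes (34.0%), against 12.9% of all genes. Of the 47 genes, 23 had a summit inside a promoter window, and 13 of these 23 (56.5%) had CCGGAAG in such a promoter. They were Srsf4, Srsf7, Srsf11, Hnrnpd, Hnrnpf, Snrpe, Snrpg, Snrpb2, Snrpc, Sf3a1, Sf3a3, Sf3b2 and Sf3b3. Among all genes with a summit in a promoter window it was 1165 of 4436 (26.3%). Among the 24 splicing and hnRNP genes without such a summit 3 had the motif (12.5%), and among all genes without one 1063 of 13056 (8.14%). With the background narrowed to genes with CpG-rich promoters, defined below, 27.6% of those with a summit and 15.2% of those without had it. These shares were not tested, and 23 genes are few.

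**Figure D3:**
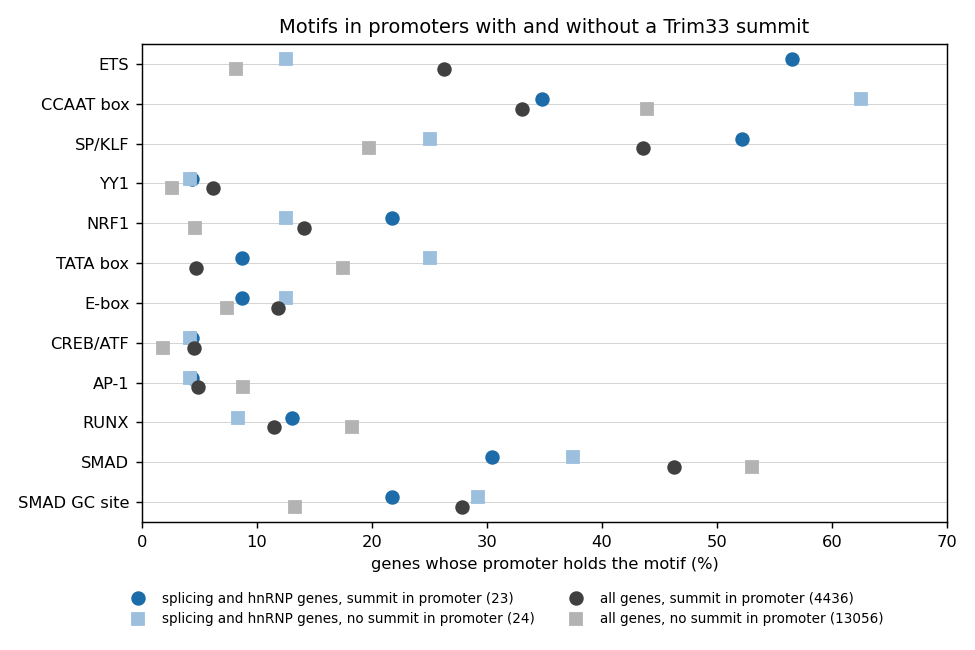
Percent of genes whose promoter holds each motif on either strand (x axis), for 12 motifs (y axis). Circles are genes with a Trim33 summit in the promoter window and squares genes without, in blue for splicing and hnRNP genes and grey for all genes, and the ETS motif is held by 56.5% of the 23 splicing and hnRNP genes with a summit against 26.3% of the 4436 genes with one.

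Other motifs differed less or in the other direction. The SP/KLF motif was in 12 of the 23 genes with a summit (52.2%), against 43.6% of all genes with a summit, and NRF1 was in 5 (21.7%), against 14.1%. CCAAT was in 8 of the 23 (34.8%), against 33.0% of all genes with a summit. It was in 15 of the 24 splicing and hnRNP genes without a summit (62.5%), against 43.9% of all genes without one. The short SMAD motif CAGAC was in 7 of the 23 (30.4%), against 46.3% of all genes with a summit. Without a summit CAGAC was in 9 of the 24 (37.5%), against 53.0% of all such genes, so it was less frequent in both groups. The SMAD GC site GGCGCC was in 5 of the 23 (21.7%), against 27.8%. Without a summit GGCGCC was in 7 of the 24 (29.2%), against 13.3%. The YY1 motif AAGATGGC, the CREB/ATF motif TGACGTCA and the AP-1 motif TGANTCA were each in 1 of the 23 (4.35%), against 6.15%, 4.49% and 4.91% of all genes with a summit. The TATA box TATAAA and the E-box CACGTG were each in 2 (8.70%), against 4.73% and 11.8%, and the RUNX motif TGTGGT in 3 (13.0%), against 11.5%. In the 64 listed promoters of these genes, 21 of 198 matches overlapped another match.

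The promoters of these genes were mostly CpG-rich, a class of promoter typical of genes used in every cell. CpG richness is given as the observed number of CG pairs over that expected from the base content, and a gene was called CpG-rich when 1 of its listed promoters reached 0.6. This held for 44 of the 47 genes (93.6%), against 50.9% of all genes of the table. Among CpG-rich genes a summit within 1000 bp of a listed start was found in 35 of the 44 (79.5%), against 59.3% over all CpG-rich genes. Among the other genes it was 1 of 3, against 9.47%. The background of CpG-rich genes was thus much higher than that of all genes. It is set by the threshold of 0.6 and is not matched in CpG content to these genes, whose listed starts had a median ratio of 0.914. Whether CpG content accounts for the share was not tested.

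Start sites shared with a neighbour were common. A head-to-head neighbour, with its start on the opposite strand within 1000 bp upstream, was listed for 13 of the 47 genes (27.7%), against 8.48% of all. Of these 13, 10 had a summit at a listed start (76.9%), against 67.3% over all head-to-head genes. Of the 34 others 26 did (76.5%), against 31.8% over all other genes. Of the 55 gene-end summits, 25 also lay within 1000 bp of an end of another protein-coding gene, and for those peaks the gene cannot be told apart from its neighbour. The matching share of all gene-end peaks was not counted, so this number is not shown to be unusual. Not all of these neighbours are named below.

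Among the SR proteins, 8 of 11 genes had a gene-end summit. Srsf9 had the highest gene-end peak of this group, 11.1-fold at 115327023 to 115327310 on chromosome 5 (rank 2018 of 27050 by fold), 10 bp inside the gene. Srsf1, its closest relative and a founding SR protein, had 1 peak of 10.2-fold on chromosome 11 at 88047200 to 88047752 (rank 2759). It lay 1097 bp inside the lower end of the gene and so missed the gene-end window, but it was 223 bp downstream of the listed start. Both members of this pair thus carried 1 peak above 10-fold at a start.

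Srsf4, Srsf5 and Srsf6 encode closely related SR proteins. Srsf4 had 7.38-fold at 131873366 to 131873678 on chromosome 4 (rank 7899), 29 bp from its gene end. Srsf6 had 7.10-fold at 162931408 to 162931637 on chromosome 2 (rank 8682), also 29 bp inside the gene, and a smaller peak of 4.43-fold. Srsf5 had 4.60-fold at 603 bp downstream of its start. All 3 had a gene-end summit, that of Srsf5 farther into the gene than the others.

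Srsf11 had 5.94-fold at 158036478 to 158036727 on chromosome 3 (rank 13660), 7 bp upstream of its first listed start and 54 bp inside the gene. Srsf7 had 5.92-fold at 131 bp upstream, whereas Srsf3, its close relative and like it an mRNA export adaptor, had no summit in its locus, and the nearest was 35615 bp from its start. Srsf10, which acts as a repressor of splicing when dephosphorylated, had 2 gene-end summits of 4.83-fold and 4.09-fold. Srsf2, known as SC35, had 5.15-fold at 592 bp and 4.36-fold at 58 bp from its start, and the first of these was nearer to a start of its head-to-head neighbour Mfsd11 (76 bp). Srsf12 had no summit in its locus. Its nearest lay 34816 bp from the start.

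Among the hnRNPs, 15 of 21 genes had a gene-end summit, and several had runs of them. Hnrnpul1, a relative of the nuclear scaffold gene Hnrnpu, had the highest, 11.9-fold at 25756009 to 25756414 on chromosome 7 (rank 1545). It lay 23 bp outside the 5′ end of the gene and 1532 bp upstream of its listed start, with smaller peaks of 4.46-fold and 3.96-fold between them. The 11.9-fold and 4.46-fold summits also lay within 1000 bp of an end of Axl, so they cannot be assigned to 1 gene. Hnrnpul2 had 5.19-fold at 773 bp from its lower end, and its second locus peak of 6.01-fold lay next to Bscl2. Hnrnpu itself had no gene-end summit, but a peak of 4.60-fold lay 34 bp upstream of its listed start, 1042 bp inside the gene. Of the other locus peaks of Hnrnpu, 6.00-fold lay inside the gene and 6.16-fold nearer to Cox20.

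Hnrnpf and Hnrnph1 encode proteins that bind runs of G in RNA, and both had summits at internal starts. Hnrnpf had 8.99-fold at 117900158 to 117900621 on chromosome 6 (rank 4289), 73 bp upstream of the first of its 4 listed starts. Inside the gene, 5.92-fold lay 59 bp from its second listed start and 5.44-fold lay on the base of the fourth, 16954 bp from the first. All 4 starts had a summit within 1000 bp and 3 within 250 bp. Hnrnph1 had 5 listed starts, all 5 with a summit within 1000 bp and 4 within 250 bp, from 3 peaks of 2.97, 4.01 and 4.34-fold. None of them counted as gene-end, since they lay 2416 to 3264 bp inside the gene.

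Srsf11 showed the same arrangement, with a peak of 4.13-fold 57 bp upstream of its internal start. Of the 9 genes with several listed starts, 7 had a summit within 1000 bp of every start, and the other two, Snrpa and Snrpn, had none at any. Starts that lie close together can share 1 summit. Of the 22 distal summits of all these loci, 11 lay within 1000 bp of a listed start of the same gene. Those 11 are distal to gene ends but not to promoters. Neither the 7 of 9 nor the 11 of 22 has a share over all genes beside it, since none was counted. Summits at internal starts are therefore not shown to be particular to these genes.

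Hnrnpa2b1 and Hnrnpa1 are paralogues that each sit head to head with a gene for an HP1 protein, the readers of methylated H3K9. Hnrnpa2b1 shares its promoter region with Cbx3, which encodes HP1 gamma, and it had the most summits of the set beside Hnrnpf, 6 each. In order along chromosome 6 they had 5.46, 5.50, 4.84, 2.89, 7.21 and 5.16-fold. The first 4 were nearest to a start of Hnrnpa2b1 and the last 2 to a start of Cbx3, at 89 and 185 bp. Hnrnpa1 with its neighbour Cbx5, which encodes HP1 alpha, had no summit in its locus, and the nearest lay 58011 bp from its start. Both promoters were CpG-rich (ratios of 1.21 and 1.28 at the starts of Hnrnpa2b1, 0.970 at Hnrnpa1). The reason for the difference in summits between the paralogues was not tested, and Hnrnpa1 may have had signal under the calling threshold.

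**Figure D4:**
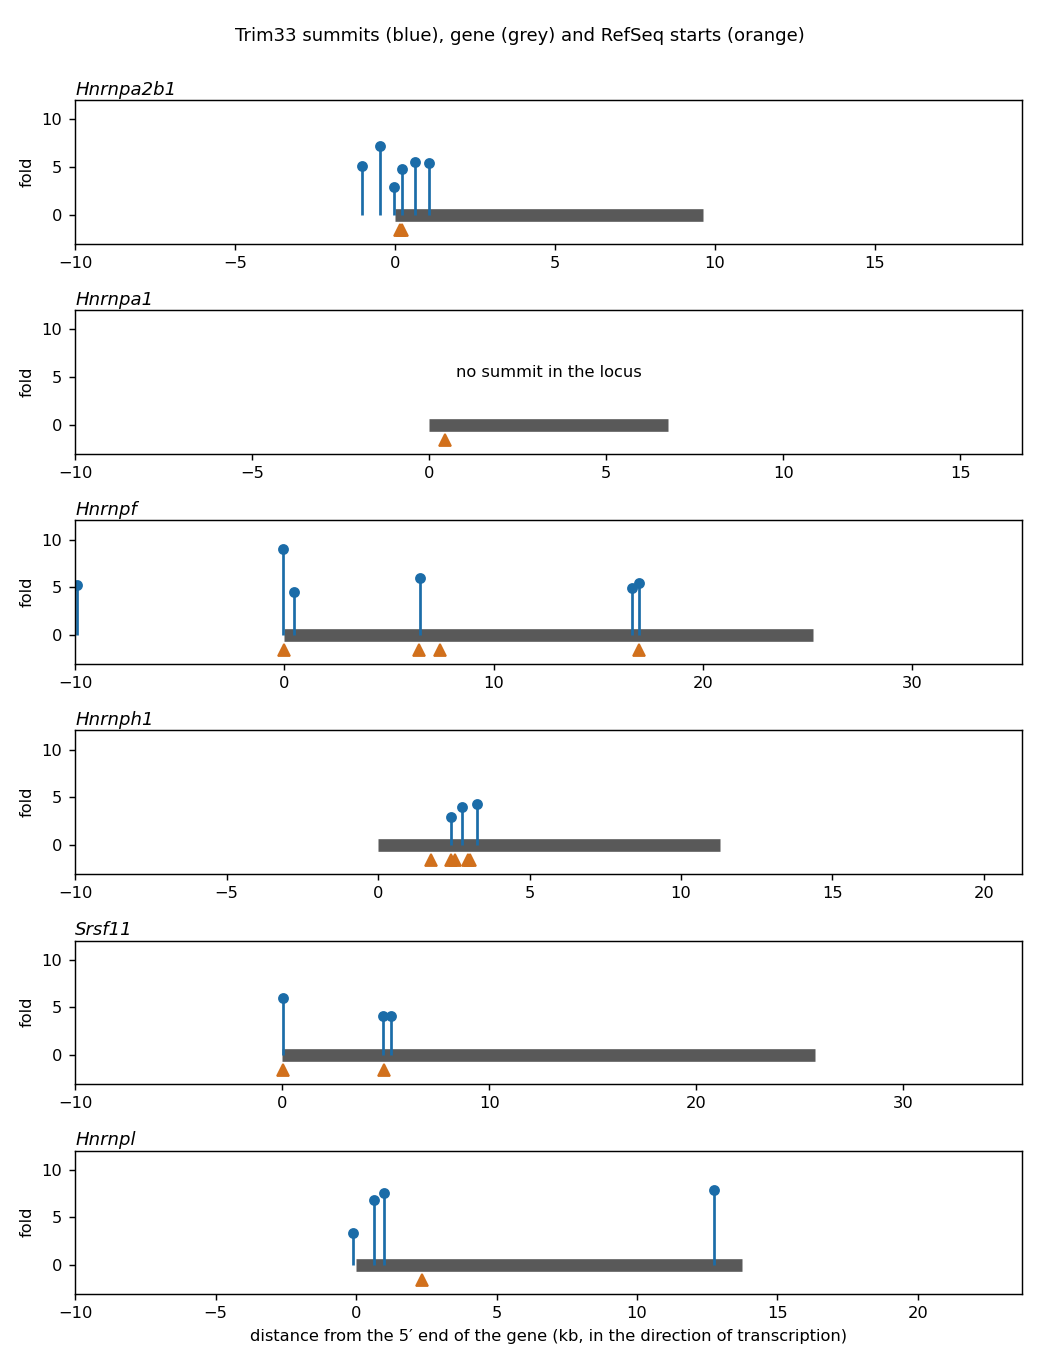
Trim33 summits (blue, height is the fold enrichment), gene span (grey) and RefSeq starts (orange triangles) at 6 hnRNP and SR genes, against the distance from the 5′ end of the gene in kb. Hnrnpa2b1 has 6 summits around its start and Hnrnpa1 none, and summits stand at internal starts of Hnrnpf, Hnrnph1 and Srsf11.

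Hnrnpd (AUF1) and its relative Hnrnpdl bind AU-rich elements of mRNA. Hnrnpd had 1 peak of 8.87-fold at 99978768 to 99979439 on chromosome 5 (rank 4441), 46 bp outside its 5′ end and 238 bp upstream of its listed start. Hnrnpdl had 4 locus summits of 5.39, 6.51, 5.99 and 5.04-fold, 3 of them gene-end, around the start that it shares with Enoph1. Hnrnpab, of the same family, had 4.02-fold at 628 bp downstream of its start. All 3 relatives had a gene-end summit, at different distances from the start. Those of Hnrnpd and Hnrnpdl also lay within 1000 bp of an end of 4930524J08Rik and of Enoph1.

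Hnrnpl and Hnrnpll both act on CA-rich RNA, and Hnrnpll is known as a switch of Ptprc splicing in lymphocytes. Hnrnpl had 4 summits, and its highest, 7.83-fold at 28821186 to 28821371 on chromosome 7 (rank 6620), lay 989 bp from the far end. At its 5′ end lay peaks of 3.39-fold at 99 bp, 6.82-fold at 633 bp and 7.52-fold at 1001 bp. The listed start of Hnrnpl was 1343 bp from the closest of them, which made it the only gene of the set with a gene-end summit and none within 1000 bp of its listed start. Hnrnpl also held the summits closest to the edge of the window, at 989 bp inside and 1001 bp outside. Hnrnpll had 4.18-fold at 196 bp from its upper end, 150 bp from an end of 4933407O12Rik, and 5.24-fold outside the gene.

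Of the remaining hnRNP genes, Hnrnpk, which binds C-rich RNA, had 7.06-fold, 5.48-fold and 4.33-fold around the start that it shares with Rmi1, and 1 more summit near 2210016F16Rik. Hnrnpa0 had 7.21-fold at 325 bp upstream of its start and Hnrnpa3 7.02-fold at 335 bp downstream. Hnrnpr had 5.66-fold at 28 bp, Hnrnph3 5.51-fold at 480 bp and Hnrnpm 4.16-fold at 64 bp from the start. The Hnrnph3 peak was nearer to a start of its head-to-head neighbour Pbld2 (183 bp). That of Hnrnpm also lay within 1000 bp of an end of Marchf2. No locus summit was listed for Hnrnpa1, Hnrnpa1l2-ps2, Hnrnpc and Hnrnph2. Hnrnpc binds U-rich tracts in nascent RNA, and the nearest summit was 36369 bp from its start. Hnrnph2 is on chromosome X and its nearest summit was 15625 bp away, whereas its autosomal relative Hnrnph1 had 3.

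**Figure D5:**
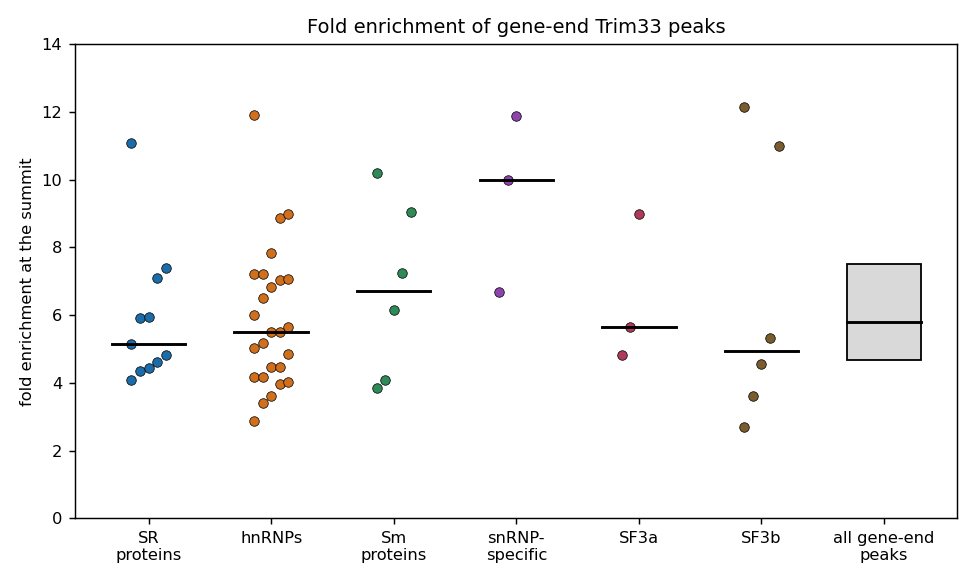
Fold enrichment of the 55 gene-end Trim33 peaks (y axis) by role of the gene (x axis), with 1 point per peak and a line at the median. The box gives the quartiles (4.69 and 7.51) and median (5.79) of all 7497 gene-end peaks.

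Sm proteins form the ring on the spliceosomal RNAs, and 5 of these 8 genes had a gene-end summit. Snrpd3 had 10.2-fold at 75517848 to 75518071 on chromosome 10 (rank 2796), 94 bp upstream of its start and 24 bp from a start of its head-to-head neighbour Gucd1, and a second peak of 7.24-fold. Snrpd1 had 9.03-fold at 10617661 to 10618014 on chromosome 18 (rank 4226), 40 bp outside the gene. Snrpe had 6.16-fold at 133610247 to 133610492 on chromosome 1 (rank 12625), 101 bp upstream. Snrpf had 4.08-fold at 93589317 to 93589475 on chromosome 10 (rank 24424), 216 bp downstream. Snrpd1 has no listed start, so its peak is placed by the gene end alone.

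Snrpg had 3.84-fold at 133 bp upstream of its start. The highest peak of all 94 locus summits, 12.3-fold, was also in the locus of Snrpg, but it lay 3 bp from an end of Fam136a and 6072 bp from Snrpg. Snrpd2 had 1 locus summit of 9.83-fold, 4909 bp beyond its far end and nearest to an end of Gipr (1580 bp). Snrpb, the gene for the core SmB protein, and Snrpn, its imprinted relative that is used mainly in brain, had no summit in their loci. Over all loci of the set, 65 of the 94 summits had an end of the splicing or hnRNP gene itself as the nearest gene end and 29 had another gene's. The matching share for other genes was not counted.

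Of the 4 genes for U1 and U2 specific proteins, 3 had a gene-end summit, 1 each. Snrpa1, whose protein is a leucine-rich subunit of the U2 snRNP, had 11.9-fold at 66060382 to 66060653 on chromosome 7 (rank 1556), 141 bp inside the gene. Its promoter had a low CpG ratio (0.365), and it was the 1 gene with a summit among the 3 genes without a CpG-rich promoter. Snrpb2, whose protein is the partner of that subunit, had 9.97-fold at 143062922 to 143063131 on chromosome 2 (rank 3011), 48 bp upstream. Both subunits of this dimer had peaks well above the gene-end median of 5.79. Snrpc, of the U1 snRNP, had 6.67-fold at 27839911 to 27840163 on chromosome 17 (rank 10262), 70 bp upstream. Snrpa, which encodes an RNA-binding protein of the U1 snRNP and is a paralogue of Snrpb2, had no gene-end summit. Its 1 locus summit, of 4.08-fold, lay 16895 bp from its nearest start and 18 bp from an end of Rab4b.

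All 3 SF3a genes had 1 gene-end summit, upstream of the start in each. Sf3a3 had 8.97-fold at 124714621 to 124714869 on chromosome 4 (rank 4317), 116 bp upstream. Sf3a2 had 5.66-fold at 80798107 to 80798347 on chromosome 10 (rank 15364), 486 bp upstream and 377 bp from a start of Plekhj1. Sf3a1 had 4.81-fold at 4160270 to 4160418 on chromosome 11 (rank 20590), 20 bp upstream. Each gene of this complex thus had a gene-end summit, 1 of them at a higher fold than the gene-end upper quartile of 7.51. The summits of Sf3a2 and Sf3a1 also lay within 1000 bp of an end of Plekhj1 and of Ccdc157, so they cannot be assigned to 1 gene.

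Of the 6 SF3b genes, 5 had a gene-end summit. Sf3b1, whose protein clamps the branch point and which is mutated in blood cancers in humans, had 11.0-fold at 55027244 to 55027722 on chromosome 1 (rank 2093), 19 bp upstream of its listed start. Sf3b2 held the highest gene-end peak of the set, 12.1-fold at 5272978 to 5273395 on chromosome 19 (rank 1419), but this was 640 bp beyond its far end and 162 bp from a start of Pacs1. At its own start Sf3b2 had 3.62-fold, 97 bp upstream. Sf3b3 had 5.34-fold at 110846930 to 110847100 on chromosome 8 (rank 17569), 214 bp upstream of its start and 7 bp from a start of Cog4. Sf3b4 had 4.57-fold at 96172358 to 96172596 on chromosome 3 (rank 22055), 9 bp from its lower end. Sf3b5 had 2.69-fold at 65 bp from its lower end. Sf3b6, whose protein contacts the branch point adenosine, had no gene-end summit and 1 peak of 3.92-fold at 2293 bp downstream of its start.

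The rule on gene ends and the listed starts together gave 42 of 53 genes with a summit at an end or a start, against 7921 of all 21887 protein-coding genes (36.2% called). The 6 genes with a locus summit but no gene-end summit were Srsf1, Hnrnph1, Hnrnpu, Snrpd2, Snrpa and Sf3b6, and the first 3 had it at a listed start. The 8 genes with no locus summit were Srsf3, Srsf12, Hnrnpa1, Hnrnpa1l2-ps2, Hnrnpc, Hnrnph2, Snrpb and Snrpn. A gene without a summit in this list may have had signal under the authors' calling threshold.

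Other splicing genes were described from a list of 110 symbols outside the symbol rule, among them U2 auxiliary factors, PRPF and LSM proteins, splicing helicases and regulators. Of these, 76 had a gene-end summit (69.1%), beside 39 of the 53 splicing and hnRNP genes (73.6%), and 94 had a locus summit (85.5%). The median fold of their 98 gene-end peaks was 5.93. The highest were at Luc7l (17.0-fold), a U1-associated factor, Rbm25 (14.1-fold), Lsm5 (13.8-fold) of the U6 ring, Plrg1 (12.1-fold) of the PRP19 complex, Prpf31 (10.8-fold) of the U4/U6 particle and Pcbp2 (10.4-fold), a poly-C binding protein. No locus summit was found for 16, the first 6 in alphabetical order being Cdc5l, Clk1, Crnkl1, Dhx9, Eif4a3 and Esrp2. Genes with and without a listed summit thus stood side by side within single complexes, as with Plrg1 and Cdc5l of the PRP19 complex.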

How the data were processed

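The submitters' processing notes name the build mm10, MACS2 2.1.1.20160309, the aligner Bowtie 1.2.1.1 and the read trimmer Trim Galore 0.3.7. Settings, calling threshold and control are not stated there. The deposited list of merged replicates gives a fold enrichment (a ratio to background) at each summit. It also holds the −log10 of the q-value as deposited by the authors, used only for a stricter subset. The deposited score follows from that −log10 q (10 times, rounded down, in 100% of peaks) and was left out. Library depth is unknown.

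Summits were counted from 1 and joined to protein-coding genes of RefSeq GRCm38.p6 with Python 3.11.15, by a window of 1000 bp around gene ends and flanks of 10 kb. Strand, starts and promoters came from the RefSeq promoter table, which covers 17492 protein-coding genes and none on chromosome 18. The join was tested on simulated summits. Motifs were matched by letters. Genes were named as the members of the set, with positions and ranks for up to 4 of each role with the highest gene-end fold, and for the 6 highest of the other splicing genes. The members and lists were chosen with earlier results of these data known. No test over genes was run. Alternatives were other windows, flanks, peak subsets and gene assignments.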

Additional observations from a re-analysis of the deposited data

How the results depend on the processing

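Of 27 alternatives to the counts and the median fold of splicing genes, 17 left the value within 1.5 times of the main one, or within the interval of the median, and 10 did not. Peaks at or above the median fold left 21 of the 53 splicing and hnRNP genes with a gene-end summit (39.6%, against 17.2% of all genes), and those at or above the median −log10 q left 22 (41.5%, against 17.6%). For the 110 other splicing genes these counts were 45 (40.9%) and 48 (43.6%). The locus count was 26 with gene bodies alone (49.1%, against 33.0% of all genes). It was 27 in the peaks of higher fold (50.9%) and 26 in those of higher −log10 q (49.1%), against 35.8% of all genes in both. The distal count was 9 with 2500 bp (17.0%, against 25.7%). It was 4 in each of the peak subsets (7.55%), against 20.6% and 20.4% of all genes, so there the distal share was below that of all genes. The subsets hold fewer peaks, and gene bodies smaller areas, by construction. Without Olfr, Vmn, Gm and Rik symbols the gene-end share of all genes was 38.1%, outside the 95% binomial interval of 33.4% (32.8 to 34.0%, exact). Since 33.4% is a full count of genes, that interval served only as a fixed yardstick and measures no spread between libraries.

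The gene-end count of 39 was 35 with 500 bp (66.0%, against 29.8% of all genes), 43 with 2500 bp (81.1%, against 38.5%) and 34 with a summit given only to the nearest gene end (64.2%, against 29.6%). At the start end alone it was 34 of 47 genes (72.3%, against 32.1%). The uses of any listed start (36 of 47) and of the set without Hnrnpa1l2-ps2 (39) were chosen after seeing the data. No paired analysis was possible because the list merges the replicates, and no replicate could be left out.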
